A study of Mus musculus with 8 samples.

Results

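The lymphoid lineage genes are 44 genes of B, T and natural killer (NK) cells, examined here in the open chromatin of a myeloid leukaemia. There were 17 B-lineage, 18 T-lineage and 9 NK or cytotoxic genes among 21887 protein-coding genes. A peak of open chromatin was taken as belonging to a gene when its summit, the position of its highest signal, fell in the mm10 gene body or within 10 kb of it. Under that rule 58 of the 32730 accessible regions of the series belonged to the 44 genes, 29 to B, 24 to T and 5 to NK genes. At the 10 kb limit, 1 region each of Rag1 and Klrd1 fell in the last 1 kb inside it and 1 region each of Foxp3 and Klrb1c in the first 1 kb outside it.

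The study asked how chromatin changed while leukaemia cells were eliminated by Klf4, a zinc-finger transcription factor. Open DNA was profiled by ATAC-seq (a transposase cuts accessible DNA and tags it for sequencing) in bone marrow cells sorted for GFP from leukaemic mice. All 4 groups carried the MLL-AF9 fusion and TetO-Klf4, a Klf4 construct that doxycycline switches on. They differed in time, 0h, 6h, 12h and 24h, with 2 libraries each. The labels give the background as C57BL/7 and no age or sex. They do not say whether 0h cells had received doxycycline, whether the 2 libraries of a time came from separate mice, or whether 1 leukaemia was the source of all. No library lacked the construct. Any p-value therefore rests on the variation among the 8 libraries alone, and that variation may be technical.

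MLL-AF9 joins part of a histone methyltransferase to a partner of the transcription elongation machinery and drives acute leukaemia of myeloid character. Blood stem and progenitor cells keep some regulatory sites of several lineages open before they commit, a state called lineage priming. Pax5 and Ebf1 then fix the B fate, and Tcf7, Lef1 and Gata3 act in early T cells, while effector genes such as granzymes and perforin open late. Lineage genes of lymphocytes are mostly closed in mature myeloid cells. In sorted bulk cells, a site open in few cells and a site weakly open in many cannot be told apart.

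The peak lists held 14826 to 21903 peaks per library. Pile-up, the number of reads or fragments stacked over a summit, was recovered from the deposited values and had a median of 10 in the second 0h library and of 14 to 16 in the others. The lowest pile-up of any called peak was 4 in the second 0h library and 5 in the others. These are minima of the lists, not limits: the pile-up a call needs also depends on the local background, and a peak beside Cd79a with a pile-up of 12 in 0h replicate 1 had a −log10 q of 2.72, near the lowest in the list. A site without a peak is therefore not shown to be closed. The second 0h library thus had the lowest median pile-up, and the first 0h library had one of the longest lists (21763 peaks), so the 0h pair was uneven. Read totals were not used here. Of 24 myeloid and leukaemia markers (Mpo, Csf1r, Cebpa, Spi1, Hoxa9 and others), all 24 had a peak in at least 1 library under the 10 kb rule. In all 8 libraries 16 (66.7%) had one. The shares of all genes were 68.8% and 48.8%. Under this rule these markers thus had peaks more often than genes in general, which does not show that they were expressed.

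The starts of the lymphoid genes carried almost no peaks. A RefSeq table of the GRCm38.p6 assembly, the same assembly as mm10, gave 300 bases around a transcript start (250 before and 50 after) for 35 of the 44 genes, in 47 windows. A called peak lay over such a window for 2 of 35 genes (5.71%), against 49.7% of all 17492 genes in the table and 11 of 20 myeloid markers (55.0%). None of the 35 genes had one in all 8 libraries, against 33.6% of all genes and 15.0% of the myeloid markers. The 2 genes were Bank1, an adaptor of B-cell receptor signalling, in 5 libraries, and Tcf7, a transcription factor of early T cells, in 1 library. Neighbouring genes with a region of the lymphoid genes within 1 kb of an end had a peak over their start in 10 of 11 cases with a listed start, a share that follows largely from how they were found. The 250 bases before the start of Bank1, Vpreb1 and Nkg7, and of Top3b and Etfb, the neighbours of the last 2, show how far such sequences can differ in CpG content. Neighbours were chosen after their values were seen. Capitals mark GGAA or its reverse complement TTCC, the core that ETS factors such as PU.1 recognise.
Bank1: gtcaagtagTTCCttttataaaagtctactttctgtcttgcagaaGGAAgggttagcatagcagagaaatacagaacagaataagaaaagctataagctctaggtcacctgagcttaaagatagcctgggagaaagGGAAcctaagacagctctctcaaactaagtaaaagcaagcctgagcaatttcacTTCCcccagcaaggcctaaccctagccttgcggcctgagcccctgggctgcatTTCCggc
Vpreb1: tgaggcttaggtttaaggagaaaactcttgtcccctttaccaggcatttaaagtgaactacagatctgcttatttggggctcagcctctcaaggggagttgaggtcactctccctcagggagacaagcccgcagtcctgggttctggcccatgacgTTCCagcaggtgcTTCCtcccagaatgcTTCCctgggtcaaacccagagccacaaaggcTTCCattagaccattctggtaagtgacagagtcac
Top3b: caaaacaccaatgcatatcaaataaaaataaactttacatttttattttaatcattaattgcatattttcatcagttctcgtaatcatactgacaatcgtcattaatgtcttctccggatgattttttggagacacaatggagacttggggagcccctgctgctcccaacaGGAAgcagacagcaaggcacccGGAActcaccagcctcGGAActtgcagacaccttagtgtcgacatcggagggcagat
Nkg7: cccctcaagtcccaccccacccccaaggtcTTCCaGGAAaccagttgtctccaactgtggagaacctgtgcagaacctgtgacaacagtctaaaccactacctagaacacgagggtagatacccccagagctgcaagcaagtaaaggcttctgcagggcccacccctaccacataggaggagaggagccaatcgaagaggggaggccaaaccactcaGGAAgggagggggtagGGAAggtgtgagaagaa
Etfb: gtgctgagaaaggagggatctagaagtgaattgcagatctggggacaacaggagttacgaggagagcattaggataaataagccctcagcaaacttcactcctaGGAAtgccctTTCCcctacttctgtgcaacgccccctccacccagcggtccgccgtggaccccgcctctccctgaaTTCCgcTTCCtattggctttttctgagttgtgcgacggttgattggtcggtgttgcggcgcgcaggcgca
The Bank1 stretch (chr3:136326067-136326316, minus strand) had an observed to expected CpG ratio of 0.149. Vpreb1 (chr16:16869256-16869505, minus strand), which encodes part of the surrogate light chain of the pre-B-cell receptor, had a ratio of 0.119 and no peak over its start in any library. Top3b (chr16:16870486-16870735, plus strand), a topoisomerase gene, starts beside it, had a ratio of 0.645 and had a peak over its start in all 8 libraries. Nkg7 (chr7:43436888-43437137, plus strand), a granule gene of cytotoxic cells, had a ratio of 0.102 and no peak over its start. Etfb (chr7:43443822-43444071, plus strand), a mitochondrial electron carrier gene, had a ratio of 0.725 and a peak in all 8. GC content did not follow the same order, at 52.0% for Vpreb1 and 42.0% for Top3b, and 56.0% for Nkg7 and 55.6% for Etfb. A start of Iftap, the neighbour of Rag1 and Rag2, had a peak in 7 libraries with a ratio of 0.283.

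Over all 47 windows of lymphoid genes the median CpG ratio was 0.262, and by list it was 0.228 for B, 0.338 for T and 0.102 for NK genes. It was 0.267 for the myeloid markers, 0.53 for all genes, 0.813 for windows with a peak in all 8 libraries and 0.246 for windows with none. The medians of lymphoid and myeloid starts were thus close. Whether CpG content bears on the peaks over a start was not tested. Motifs were counted on both strands in the 250 bases before the start. GGAA stood in 89.4% of the lymphoid windows and 93.2% of all windows. CACCC, the core that KLF factors recognise, stood in 78.7% against 54.2% of all and 69.6% of myeloid windows, and CANNTG, the E-box, in 83.0% against 62.8% of all and 52.2% of myeloid windows. CCCNNGGG, the palindromic core that EBF factors recognise, stood in 12.8% against 13.5%. These are letter matches, not bound sites, and windows of 1 gene can overlap.

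**Figure D1:**
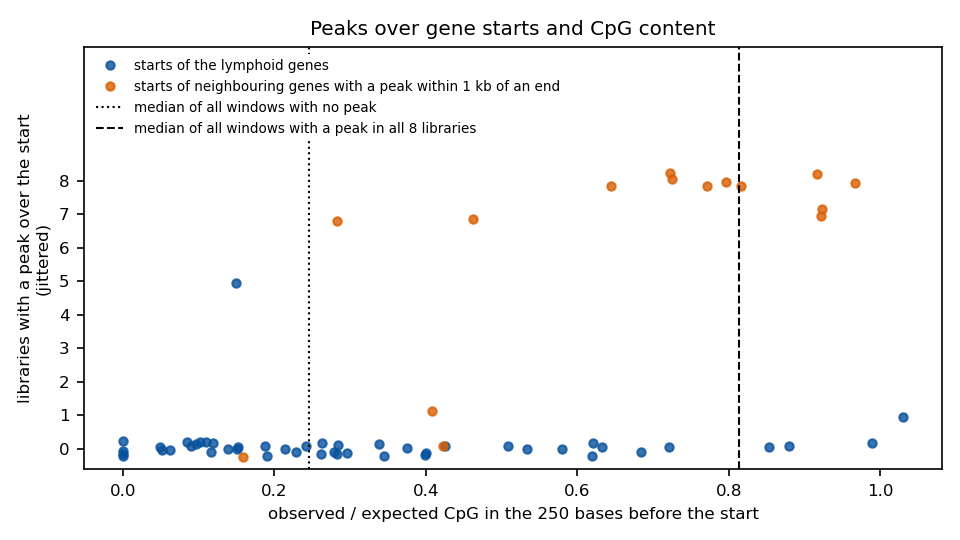
Number of libraries (of 8, jittered) with a peak over a gene start against the observed to expected CpG ratio of the 250 bases before it, for starts of lymphoid genes (blue) and of neighbouring genes with a peak near an end (orange). Vertical lines are medians of all windows with no peak (0.246) and with a peak in all 8 libraries (0.813). Lymphoid starts lie at 0 libraries except Bank1 at 5 and Tcf7 at 1.

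Within the whole window the lymphoid genes were less empty, and the lists ranked B, then T, then NK at 6h and 12h. B genes with a peak numbered 12 and 9 of 17 at 0h, 11 and 11 in the 6h libraries, 13 and 12 at 12h, and 7 and 9 in the 24h libraries. T genes with one numbered 13 and 7 of 18 at 0h, 9 and 8 in the 6h libraries, 8 and 9 at 12h, and 8 and 9 in the 24h libraries. NK genes with one numbered 2 and 2 of 9 at 0h, 3 and 1 in the 6h libraries, 3 and 2 at 12h, and 1 and 1 in the 24h libraries. The B share lay above the T share in 6 of the 8 libraries, the exceptions being the first of 0h and the first of 24h, and the NK share was the lowest in every library. Windows of neighbouring genes overlap, so 1 region can count for 2 genes, and such genes are not independent. Rag1 and Rag2 shared a region that every library except the first of 24h had. Vpreb1 and Igll1 also shared their regions, and in the T list Cd3d and Cd3g shared one.

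As means, B genes with a peak made up 61.8% ± 12.5 of the list at 0h, 64.7% ± 0.0 in the 6h libraries, 73.5% ± 4.16 at 12h and 47.1% ± 8.32 in the 24h libraries (SD, n = 2 each). The B counts of 12h lay above both 24h counts, while those of 0h overlapped all other times. The T share was 55.6% ± 23.6 at 0h and 47.2% ± 3.93 at each later time, within the spread at 0h. The NK share was 22.2% ± 0.0, 22.2% ± 15.7, 27.8% ± 7.86 and 11.1% ± 0.0 in time order. T and NK genes together held a peak in 15, 9, 12, 9, 11, 11, 9 and 10 of 27 genes over the libraries from 0h to 24h. With 2 libraries against 2, an exact test cannot give a p below 0.333, so no test was made of these shares.

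The share of all protein-coding genes with a peak under the same rule was 63.2% and 56.0% at 0h, 58.9% and 59.8% in the 6h libraries, 63.0% and 61.3% at 12h, and 56.5% in both 24h libraries. The B share lay above it in 5 libraries, all of 6h and 12h and the first of 0h, and below it in the second of 0h and both of 24h. The T share exceeded it in the first 0h library and lay below it in the other 7, and the NK share lay below it in all 8. Of the 44 lymphoid genes 27 and 18 had a peak at 0h, 23 and 20 in the 6h libraries, 24 and 23 at 12h, and 16 and 19 in the 24h libraries. Lengths of the lists moved with these counts: the first 0h list and the 12h lists were long and the 24h lists short. With every list shortened to its 14826 strongest peaks, B genes with a peak numbered 10 and 8, 9 and 10, 10 and 10, and 7 and 9 in time order, and T genes 7 and 7, 9 and 7, 7 and 8, and 8 and 9. The B counts of 12h still lay above those of 24h, by 1 gene at the closest. The share of all genes under this setting was 56.2% and 56.5% at 12h and 56.1% and 56.5% in the 24h libraries. With the window widened to 50 kb the difference was gone, at 14 and 15 B genes for 12h and 14 and 14 for 24h. At that width 14 or 15 of the 17 B genes had a peak in every library, which leaves little room for a difference. The share of all genes at that width was not counted.

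**Figure D2:**
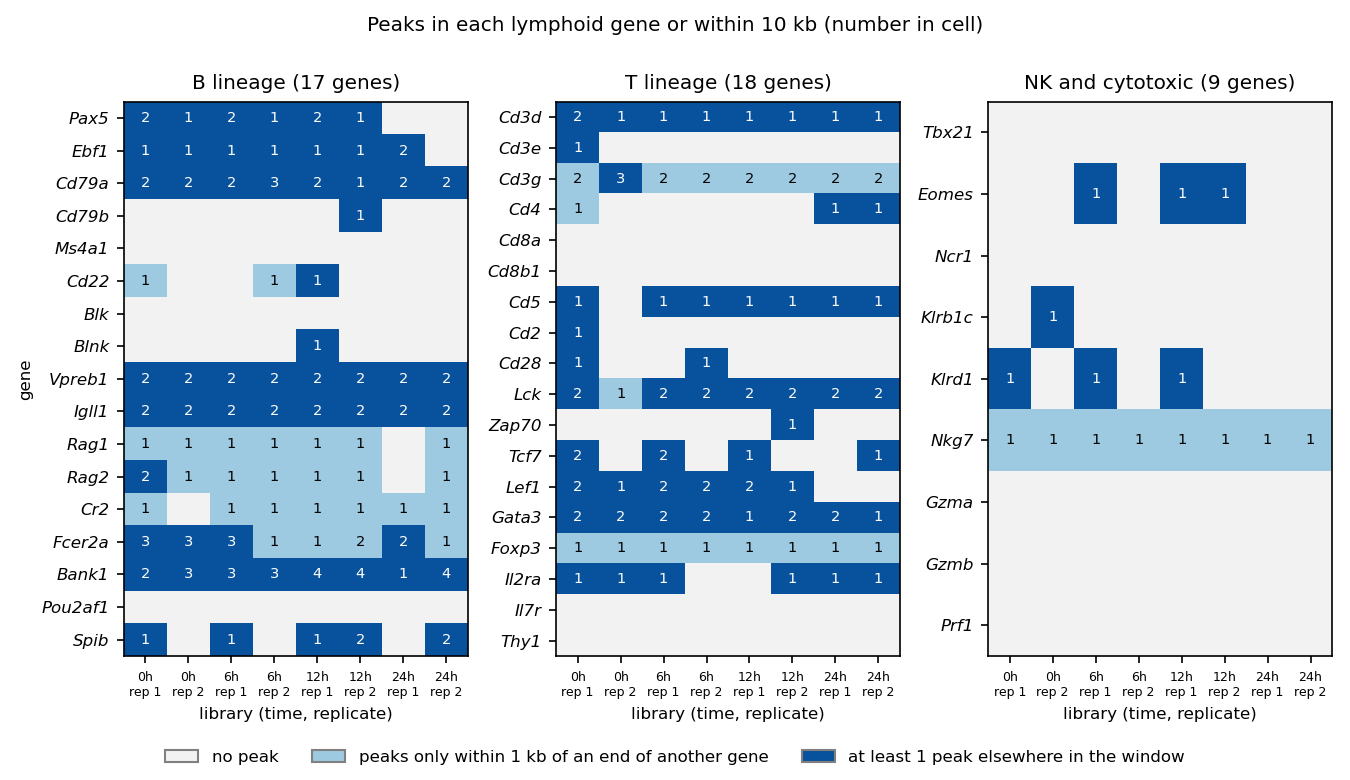
Number of peaks in each of the 44 lymphoid genes or within 10 kb (number in the cell) in the 8 libraries, columns ordered from 0h to 24h. Dark cells hold at least 1 peak more than 1 kb from any end of another gene, light cells hold peaks only within 1 kb of such an end. A peak of a dark cell may still lie inside another gene, as at Cd79a, Cd79b and Cd4. Pax5 and Lef1 are empty in both 24h libraries, and 12 genes are empty throughout.

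**Figure D3:**
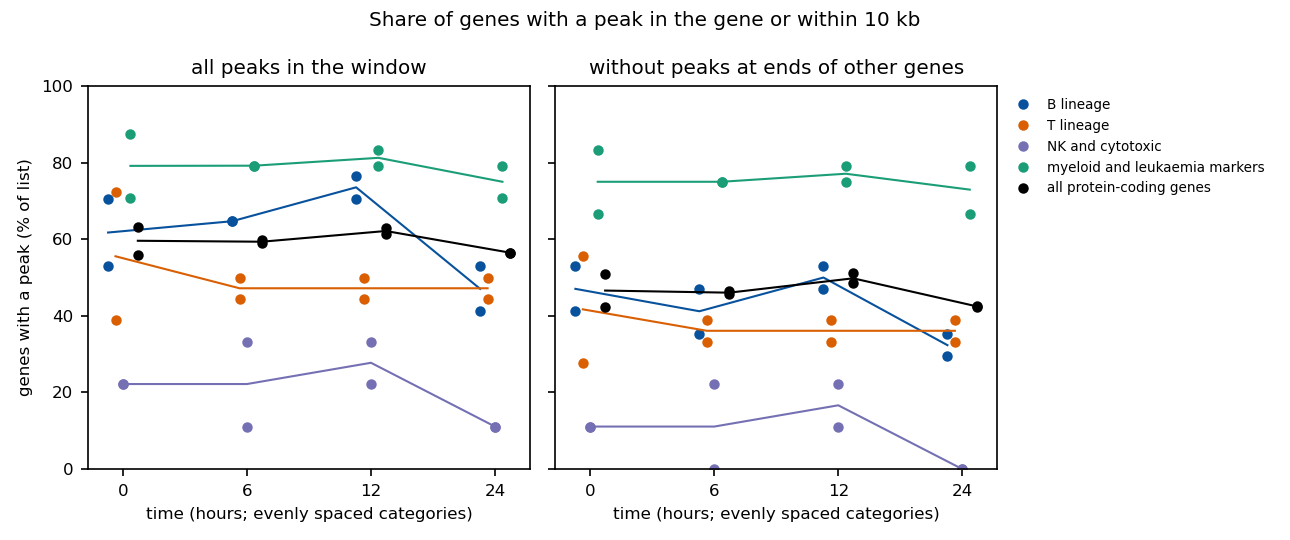
Share of each list's genes with a peak (%) against time in hours, drawn as evenly spaced categories, for all peaks in the window (left) and without peaks at ends of other genes (right). Points are libraries and lines join the means of 2 libraries. NK genes lie lowest throughout and myeloid markers highest at every time, and the B mean runs from 73.5% at 12h to 47.1% at 24h.

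Counted over libraries, 32 of the 44 genes (72.7%) had a peak in at least 1 library, close to the 68.8% of all genes. A peak in all 8 libraries was rarer, in 11 of the 44 genes against 48.8% of all genes and 66.7% of the myeloid markers. The 11 were Cd79a, Vpreb1, Igll1, Fcer2a and Bank1 of the B list, Cd3d, Cd3g, Lck, Gata3 and Foxp3 of the T list, and Nkg7. Median gene length was 14939 bp for B, 20972 bp for T, 7470 bp for NK and 17169 bp for all genes, and a longer gene has a wider window. The regions of the lymphoid genes were also called in fewer libraries, a median of 3 against 4 for all regions, with 10 of 58 called in all 8 against 9170 of all 32730.

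For 12 of the 44 genes no library had a peak, as for 6831 of all 21887 protein-coding genes. The 44 genes were thus not empty throughout more often than genes in general. In the B list these were Ms4a1, which encodes the surface protein CD20, the Src-family kinase gene Blk and the coactivator gene Pou2af1. In the T list they were Cd8a and Cd8b1, the chains of the CD8 coreceptor, the interleukin receptor gene Il7r and the surface marker Thy1. In the NK list they were the transcription factor gene Tbx21, the activating receptor gene Ncr1, the granzyme genes Gzma and Gzmb, and Prf1, which encodes the pore-forming perforin. With the window widened to 50 kb, NK genes with a peak numbered 6 and 5 at 0h and 4 and 5 in the 24h libraries, of 9.

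Much of the constant signal lay at ends of other genes. Of the 12 regions within 1 kb of an end of another protein-coding gene, 6 were called in all 8 libraries, against 4 of the other 46. The regions of the whole series were not divided by place in this way. Whether the split is particular to the lymphoid genes was therefore not tested. Foxp3, the factor of regulatory T cells, had only a region 169 bp from an end of Ppp1r3f, with folds of 10.1 and 9.31 at 0h, 10.2 and 8.48 in the 6h libraries, 11.3 and 11.5 at 12h, and 11.2 and 12.0 in the 24h libraries. Nkg7 had only the region 34 bp from an end of Etfb, which lies inside Cldnd2. Its folds were 10.2 and 10.9 at 0h, 15.1 and 15.6 in the 6h libraries, 14.2 and 16.4 at 12h, and 12.3 and 14.0 in the 24h libraries. The outer region of Lck, a kinase of T-cell receptor signalling, lay 103 bp from an end of the deacetylase gene Hdac1 and had the highest median fold enrichment of the 58 regions, 15.1 over its 8 libraries. Its folds were 16.4 and 14.4 at 0h, 15.4 and 16.1 in the 6h libraries, 14.8 and 15.7 at 12h, and 14.9 and 13.4 in the 24h libraries. Fold enrichment is the authors' ratio of a peak's signal to its local background, and serves here to describe peaks within a list. Cd3g had a region 16 bp from an end of Ube4a, Fcer2a one 44 bp from Trappc5, Rag1 and Rag2 shared one 27 bp from Iftap, and Cr2 had one 260 bp from Cr1l. The Trappc5 region had folds of 10.9 and 8.0 at 0h, 7.29 and 11.0 in the 6h libraries, 9.0 and 10.4 at 12h, and 11.4 and 12.2 in the 24h libraries. Without such peaks, 28 of the 44 genes (63.6%) had a peak in any library and 6 (13.6%) in all 8, against 59.6% and 33.2% of all genes. B genes then numbered 9 and 7 at 0h, 8 and 6 in the 6h libraries, 9 and 8 at 12h, and 6 and 5 in the 24h libraries. T genes then numbered 10 and 5, 7 and 6, 6 and 7, and 6 and 7 in time order, and NK genes 1 and 1, 2 and 0, 2 and 1, and 0 and 0. Of all genes, 50.9% and 42.3% had such a peak at 0h and 45.7% and 46.4% in the 6h libraries. At 12h these shares were 51.1% and 48.5%, and in the 24h libraries 42.7% and 42.2%. The B shares were 52.9% and 47.1% at 12h and 35.3% and 29.4% in the 24h libraries, so both sets were lower at 24h.

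Among the factors that set the B fate, Pax5 had the clearest site. The region chr4:44704408-44704707, inside the gene and 6.17 kb from its start, had fold enrichments of 10.8 and 5.33 at 0h, 4.95 and 6.62 in the 6h libraries, and 7.61 and 6.42 at 12h, with no peak at 24h. The pile-ups behind these peaks were 19 and 6 at 0h, 7 and 9 in the 6h libraries, and 11 and 9 at 12h, against a lowest called pile-up of 5 in both 24h libraries. All 6 earlier libraries had the peak and neither 24h library did. Other Pax5 regions were called in 1 and in 2 libraries. Ebf1, the partner factor that opens B-cell chromatin, had a region inside the gene (chr11:44881244-44881599) in 5 libraries, with folds of 5.17 in the first 0h library, 5.49 in the first 6h library, 5.37 and 8.15 at 12h and 6.51 in the first 24h library. A site 889 bp before an Ebf1 start was called in 1 library, the second of 6h. Spib, an ETS factor of B and plasmacytoid dendritic cells, had a region inside the gene (chr7:44527621-44528250) in 5 libraries, both of 12h and 1 each of 0h, 6h and 24h, with a median fold of 8.01.

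The surrogate light chain genes Vpreb1 and Igll1 were among the 5 B genes with a peak in all 8 libraries. They lie side by side and share a region between them, chr16:16864978-16865797, 1.42 kb before the start of Igll1. Its folds were 12.6 and 11.2 at 0h, 10.6 and 7.56 in the 6h libraries, 13.3 and 14.1 at 12h, and 8.82 and 10.5 in the 24h libraries, with pile-ups of 34 and 17 at 0h, 19 and 12 in the 6h libraries, 29 and 26 at 12h, and 15 and 17 in the 24h libraries. Every library had it, well above the lowest called pile-up. Both genes also shared the region over the start of Top3b (chr16:16870630-16871151), with folds between 8.47 and 13.3. Rag1 and Rag2, the recombinase of antigen receptor genes in B and T cells, had 1 region in 7 libraries, which lay inside Rag2 but 27 bp from an end of Iftap and was not called in 24h replicate 1. Rag2 had a further peak 1.04 kb before its start in 1 library.

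Components of B-cell receptor signalling differed from gene to gene. Cd79a, a signalling chain of the receptor, had 2 regions downstream that lay at Arhgef1: one 59 bp from its end in 7 libraries, and chr7:24904100-24904724 in all 8, with folds of 9.81 and 14.1 at 0h, 9.79 and 10.5 in the 6h libraries, 10.3 and 7.56 at 12h, and 8.8 and 8.97 in the 24h libraries. The latter covers another listed start of Arhgef1, although it counts as away from gene ends at 1.26 kb. The partner chain Cd79b had 1 peak, in 12h replicate 2, and the adaptor gene Blnk 1, in 12h replicate 1. The inhibitory receptor gene Cd22 had a region 5.92 kb outside the gene in 3 libraries. It lay nearer to Ffar1, 1.09 kb from an end of that gene. Only in 12h replicate 1 was the summit more than 1 kb from ends of other genes. Cr2, a complement receptor, had its region beside Cr1l in 7 libraries, all except the second of 0h. Fcer2a, the low-affinity IgE receptor, had a region inside the gene (chr8:3683756-3684314) with folds of 4.49 and 7.72 at 0h, 5.95 in the first 6h library and 4.24 in the first 24h library.

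Bank1 had the most regions of any lymphoid gene with 6, and its start had a peak in 5 of the 6 later libraries. The region chr3:136325770-136326167, whose summit is 40 bp before the start printed above, had no peak at 0h. Its folds were 5.73 and 6.33 in the 6h libraries, 6.94 and 7.63 at 12h and 5.67 in the second 24h library, with pile-ups of 7 and 9, 10 and 12, and 7. Both 0h libraries and the first 24h library lacked it. A stronger site 5.19 kb before the gene (chr3:136331233-136331597) was called in 7 libraries with a median fold of 9.92, again not in 24h replicate 1. A site 5.2 kb beyond the other end was called in 7 libraries, all except the second of 0h.

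In the T list, Gata3 had the strongest site inside a gene. The region chr2:9879284-9879911, 1121 bp before a listed start, had folds of 13.1 and 9.87 at 0h, 8.45 and 9.89 in the 6h libraries, 10.7 and 11.3 at 12h, and 10.8 and 10.7 in the 24h libraries. Pile-ups were 37 and 13 at 0h, 17 and 20 in the 6h libraries, 24 and 28 at 12h, and 20 and 19 in the 24h libraries, so it was present at every time. Another Gata3 region, 1.46 kb outside the gene, was called in 6 libraries, all except the first of 12h and the second of 24h. Lef1, the HMG-box factor that acts with Tcf7 in T cells and early B cells, had a region deep inside the gene, chr3:131208458-131209141. Its folds were 8.56 and 7.98 at 0h, 10.1 and 5.84 in the 6h libraries, and 7.5 and 8.91 at 12h, with pile-ups of 14 and 9, 17 and 8, and 12 and 12. No peak was called there in either 24h library, while all 6 earlier libraries had one. A site 623 bp before another listed Lef1 start (chr3:131112145-131112474) was called in both 6h libraries and the first of 12h, with pile-ups of 6, 7 and 6. Tcf7 had 3 regions in 2 libraries each, the one at its start (chr11:52283181-52283480) in the first 6h and the second 24h library with folds of 6.14 and 6.68.

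**Figure D4:**
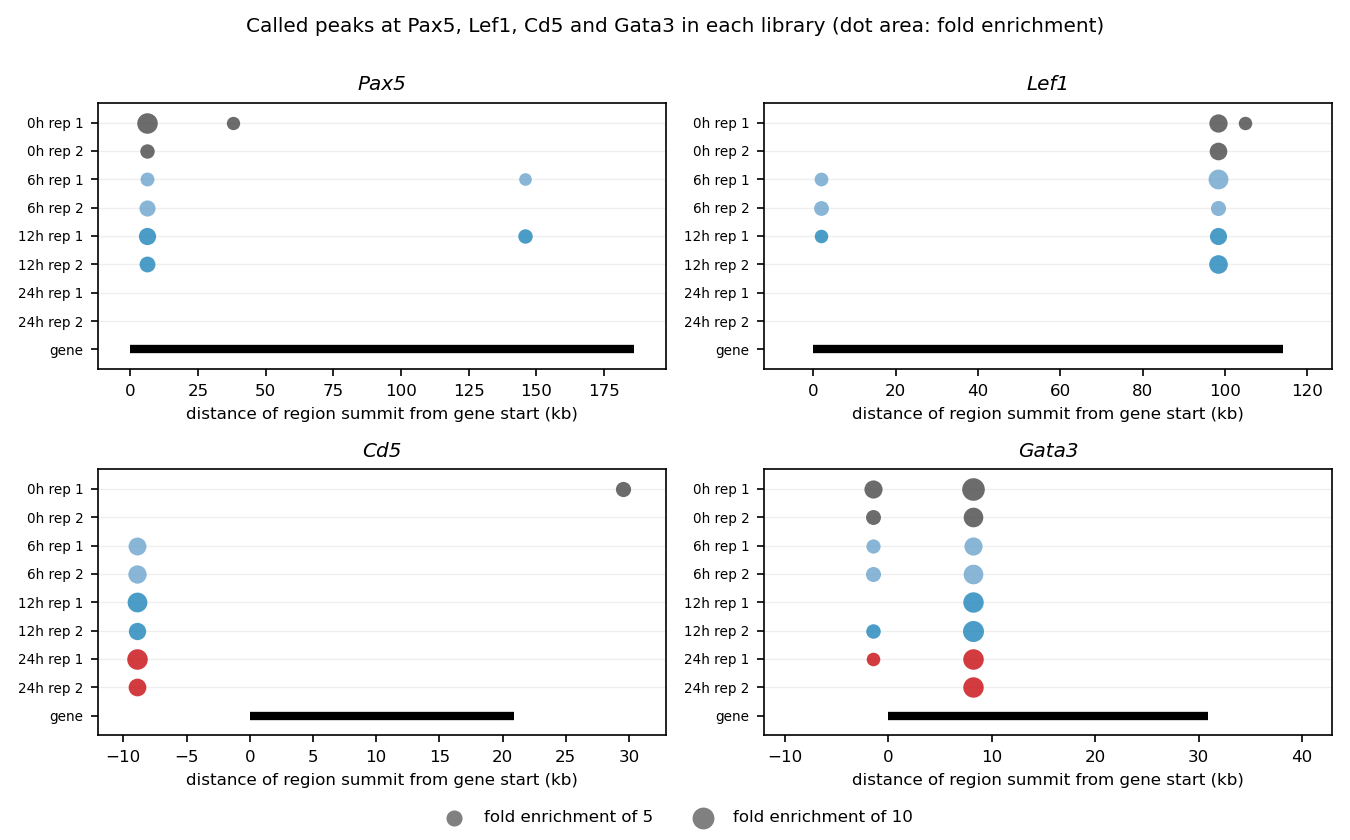
Called peaks at Pax5, Lef1, Cd5 and Gata3 in each library against distance from the gene start in kb, with dot area proportional to fold enrichment and the gene drawn as a bar. The main sites of Pax5 and Lef1 are missing in both 24h libraries, the Cd5 site is missing in both 0h libraries, and the Gata3 site is called in all 8.

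Among genes of the T-cell receptor complex, the Cd3 cluster had 1 region of its own in every library. It lay inside Cd3d, 409 bp from its end (chr9:44986285-44986821), and within the window of Cd3g. Its folds were 7.8 and 5.27 at 0h, 12.6 and 9.29 in the 6h libraries, 10.6 and 8.58 at 12h, and 10.5 and 9.33 in the 24h libraries. Cd3e, another chain of the complex, had 1 peak, in 0h replicate 1. Lck had a region inside the gene (chr4:129555732-129557019) in 7 libraries, all except the second of 0h, with folds from 4.07 to 8.35. Zap70, the kinase recruited by the receptor, had 1 peak, in 12h replicate 2. Coreceptor and adhesion genes had few: Cd4 had 3 regions of 1 library each, all outside the gene and 1 of them 565 bp from an end of P3h3, Cd28 a region in 2 libraries, and Cd2 a peak in 0h replicate 1. Il2ra, the high-affinity interleukin receptor chain, had a region 1.32 kb before its start (chr2:11641187-11641638) in 6 libraries with a median fold of 7.19, and neither the second of 6h nor the first of 12h had it.

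Cd5, a surface inhibitor of antigen receptor signalling on T cells and some B cells, had a site that was called at later times only. The region chr19:10747759-10748201 lay 8.93 kb outside the gene on the side of its start and 33.3 kb from the end of Vps37c, the nearest other gene by the table. It had no peak in either 0h library, and folds of 8.19 and 8.6 in the 6h libraries, 10.0 and 7.68 at 12h, and 10.8 and 8.04 in the 24h libraries. Pile-ups were 10 and 12 in the 6h libraries, 15 and 10 at 12h, and 16 and 12 in the 24h libraries, against lowest called pile-ups of 5 and 4 in the 0h libraries. All 6 later libraries had it. A peak on the other side of Cd5, inside Vps37c, was called in 0h replicate 1.

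NK genes had 5 regions, and each of those away from other gene ends was called in at most 3 libraries. Eomes, the T-box factor of NK and memory T cells, had a region 3.49 kb outside the gene (chr9:118489511-118489872) in both 12h libraries, with folds of 5.35 and 5.19 and pile-ups of 8 and 7, and a peak near its start in 6h replicate 1. Klrd1, a chain of the CD94 and NKG2 receptors, had a region 9.82 kb outside the gene in 3 libraries, the first of 0h, 6h and 12h, with folds of 5.97, 6.7 and 7.77. That region lay nearer to Klrk1, 1.73 kb from an end of it. Klrb1c, the NK1.1 antigen, had a peak inside the gene in 0h replicate 2 with a fold of 4.89. None of these 3 genes had a peak at 24h.

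Between 0h and later times, few lymphoid regions were lost or gained. A region was called lost when both 0h libraries and neither library of the later time had a peak, and gained in the reverse case. At 6h, 0 of 58 were lost and 3 (5.17%) gained, at Cd5, the second Lef1 site and the Bank1 start, while 2.34% of all regions were lost and 1.85% gained. At 12h, 1 (1.72%) was lost, inside Fcer2a, and 3 (5.17%) gained, at Cd5, the Bank1 start and Eomes, against 1.45% and 4.03% of all regions. At 24h, 3 (5.17%) were lost and 1 (1.72%) gained, against 4.43% and 1.12%, so the shares at 24h lay close to those of all regions. The 3 lost were the Pax5 and Lef1 sites and a region beside Fcer2a, 184 bp from an end of Fcor, with folds of 4.26 and 4.67 at 0h, 4.66 in the first 6h library and 5.49 in the second 12h library. The 1 gained was the Cd5 site. Of the 3 lost at 24h 2 lay in the B list and 1 in the T list.

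These counts depend on single libraries, and leaving one out loosens the call, since 1 library then stands for a time. Without the second 0h library, 15 regions counted as lost at 24h, and without the first, 7. Without each 24h library in turn they numbered 5. Without the first 0h library the gained regions were 6 at 6h, 8 at 12h and 4 in the 24h libraries. Those gained at 24h numbered 5 without 24h replicate 1 and 3 without 24h replicate 2. The same omissions were not counted over all regions. With lists of equal length the Pax5 and Lef1 sites were still lost at 24h and the Cd5 site still gained at every later time. With only peaks of −log10 q of at least 5, Lef1 and Cd5 kept theirs and Pax5 did not, since its peak in the second 0h library had a value of 4.34. When a library counted as present only where its peaks covered 50% of the region, none of the 3 sites was lost or gained at 24h.

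Over all 8 libraries, the Pax5 and Lef1 sites set the 2 libraries of 24h apart from the 6 earlier ones (two-sided exact permutation p = 0.0357 each, the smallest that 28 choices of 2 libraries allow). Adjusted by Benjamini-Hochberg over all 32730 regions, p was 1 for both, so neither passed. Before adjustment, 0.709% of all regions were absent at 24h alone in this way and 0.0886% present at 24h alone; of the 58 lymphoid regions 2 were of the first kind and 0 of the second. The Cd5 site set 0h apart from the later times (exact permutation p = 0.0357, adjusted p = 1). Among all regions 0.269% were absent at 0h alone and 0.611% present at 0h alone, and among the lymphoid regions 1 and 0. An exact permutation p of 0.0357 is reached only when all 8 libraries follow the split, so that split is no further support. The smallest adjusted p of any region in the series was 1 in both contrasts.

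**Figure D5:**
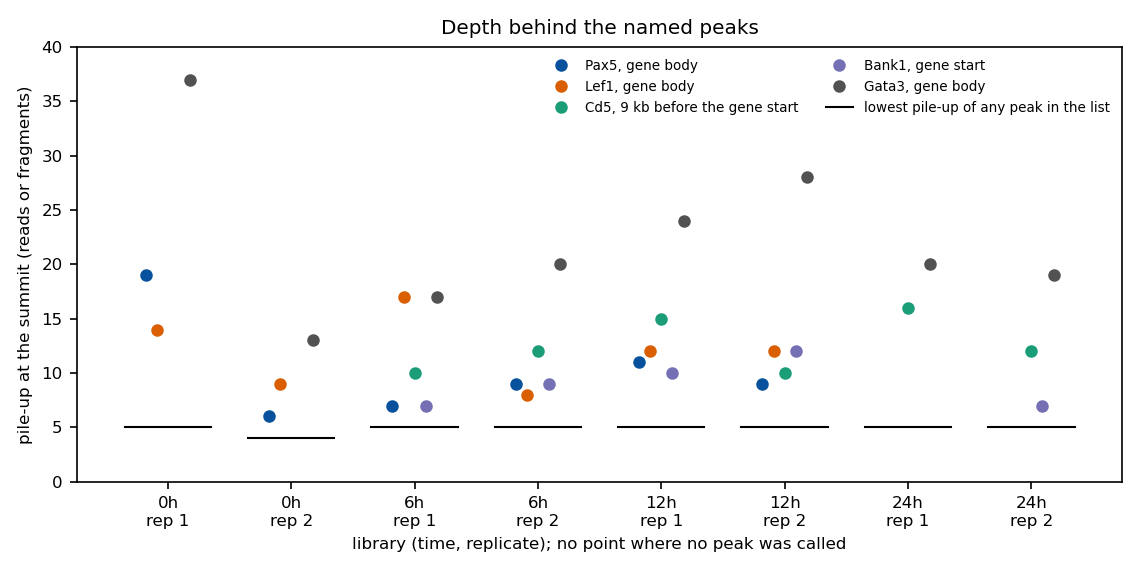
Pile-up at the summit of 5 named peaks in each library, with no point where no peak was called and a black line at the lowest pile-up of any peak in that list. Gata3 has a point in all 8 libraries, Pax5 and Lef1 in the 6 libraries of 0h to 12h and Cd5 in the 6 of 6h to 24h. The 2 lowest Pax5 points, of 6 and 7, lie near the line.

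Further lists, with no member of the 44, were counted in the same way, and their B and T genes showed no clear order after 0h. Of 11 further B genes such as Ciita and Btk, 9 and 9 had a peak at 0h, 6 and 6 in the 6h libraries, 7 and 8 at 12h, and 6 and 5 in the 24h libraries. Of 15 further T genes such as Bcl11b and Lat, 10 and 8 had one at 0h, 7 and 9 in the 6h libraries, 10 and 11 at 12h, and 9 and 7 in the 24h libraries. As shares, B was 81.8% ± 0.0 against 60.0% ± 9.43 for T at 0h, 54.5% ± 0.0 against 53.3% ± 9.43 at 6h, 68.2% ± 6.43 against 70.0% ± 4.71 at 12h, and 50.0% ± 6.43 against 53.3% ± 9.43 at 24h (SD, n = 2 each). The further B share thus lay above the T share beyond the spread at 0h only. It lay above it within the spread at 6h, and below it within the spread at 12h and 24h. Median gene length was 30251 bp for the further B and 40724 bp for the further T genes. Of 10 further NK genes such as Il2rb, Ifng and Ccl5, 3 and 1 had a peak at 0h, 2 and 1 in the 6h libraries, 2 and 1 at 12h, and 1 and 1 in the 24h libraries. The share of these NK genes, like that of the 9 above, lay below the share of all genes in every library. Of 12 regulators that lymphoid cells share with progenitors (Ikzf1, Tcf3, Ets1 and others), all 12 had a peak in some library and 7 (58.3%) in all 8, against 68.8% and 48.8% of all genes. Their median length was 35178 bp, above the 17169 bp of all genes.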

How the data were processed

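ATAC-seq peak lists of 8 libraries, 2 at each of 4 times, were analysed. The authors processed reads with BWA, SAMtools and MACS2 on mm10, per the submitters' processing notes; no version or setting is given in the sources used here. One narrowPeak list per library was deposited, so peaks were called per library. Each deposited row holds the positions of the peak and its summit, an integer score, a fold enrichment (a linear ratio over local background), and a −log10 p and a −log10 q. Handling of duplicates, of mitochondrial reads and of the transposase shift is not given in the sources used here.

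Only peaks of the 19 autosomes and of X and Y entered, 14826 to 21903 per library. The deposited fold and −log10 p values gave the whole-number pile-up of 99.8% to 99.9% of peaks within 0.001. Peaks of all lists sharing 1 bp or more were joined into 32730 regions. Genes came from RefSeq on GRCm38.p6, the assembly of mm10, and all 118 listed symbols matched. A gene had a peak when a summit lay in it or within 10 kb; a summit within 1 kb of an end of another protein-coding gene was marked. Lists were described by counts. Regions were tested by two-sided exact permutation over the 28 choices of 2 of 8 libraries, with Benjamini-Hochberg adjustment over all regions, by scripts tested on simulated data (Python 3.11.15, pandas 2.3.3, SciPy 1.17.1).

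All 44 genes were accounted for; values per library are given for genes with a lost or gained region and for the strongest regions called in all 8 libraries, and other values were chosen after they were seen. A few genes of the lists beside the 44 are not reported here and were left out of the counts. The 44 genes and the lists beside them were chosen with earlier results of these data known. Folds of different libraries depend on depth and are not on a common scale. Alternatives were stricter peaks (−log10 q of 5 or more), lists of equal length, other windows, a cover of 50%, no peaks at ends of other genes, omission of each library, and a replicate block.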

Additional observations from a re-analysis of the deposited data

How the results depend on the processing

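Of 168 alternative values, 108 stayed the same and 60 changed. A count stayed the same when within 1.5 times the reported one, and a count from the permutation test only when identical. An unchanged count can hold another region. The 1 region lost at 12h was at Gata3, not Fcer2a, with a −log10 q of at least 5 and with lists of equal length. With summits inside the gene body only, genes with a peak at 0h, 6h, 12h and 24h averaged 4.5, 4.5, 5.0 and 2.5 for B, 4.5, 5.0, 4.5 and 3.0 for T, and 0.5, 0.5, 0.0 and 0.0 for NK. With a 50 kb window, B genes averaged 14.5 at 12h and 14.0 at 24h, T genes 13.0 at 12h, and NK genes 5.5, 5.5, 5.5 and 4.5. Without peaks at ends of other genes, B genes averaged 7.0 at 6h, and NK genes 1.0, 1.0, 1.5 and 0.0 in time order. NK genes at 12h averaged 1.5 both with a −log10 q of at least 5 and with lists of equal length, and without either 6h library they numbered 1 to 3 at 6h. The wider and narrower windows change the counts by construction.

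With lists of equal length, 1 region, at Gata3, was lost at 6h and 1 gained at 12h. With a cover of 50%, 1 region was lost at 6h (Gata3), 1 gained at 6h (Lef1) and 0 gained at 24h. Inside gene bodies, 1 was gained at 12h (Bank1) and 0 at 24h, since the Cd5 site lies outside the gene. With each library left out in turn, 0 to 8 regions were lost and 3 to 6 gained at 6h, 2 to 10 lost and 3 to 8 gained at 12h, and 5 to 15 lost and 1 to 5 gained at 24h. Leaving out a library loosens the call, since 1 library then stands for a time.

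The 2 regions that set 24h apart were 0 to 2 with a library left out, and the 1 that set 0h apart was 0 to 2, an alternative added after seeing the data. The 0 values come from omitting a 24h library in the first contrast and a 0h library in the second, where 1 library against 6 cannot give an exact p below 0.143, so they say nothing about stability. Without 24h replicate 1 the Bank1 start joined the Cd5 site. With the replicate block, 0 regions were under an unadjusted 0.05 in either contrast, because its smallest exact p is 0.0625. Same-numbered libraries of different times did not deviate together (correlations of -0.0129 to 0.00502), so the numbers were not taken to pair them. Depth and local background limit all absences, and the second 0h library had the lowest median pile-up.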
